A study of Drosophila melanogaster and Drosophila simulans and Drosophila yakuba with 8 samples.

Results

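A small group of 7 genes lost most of their transcript in fly testes with a germline knockdown of Caf40 and stayed at or above 5 RPKM in testes with a knockdown of Zeus, where CG14369 alone of the 7 was called lower than in wildtype. The group holds Arr1 (FBgn0000120), CG14369 (FBgn0038159), CG14915 (FBgn0032335), CG6154 (FBgn0039420), CG13203 (FBgn0033628) and 2 identifiers that the current gene table does not name, FBgn0033288 and FBgn0086376. They were chosen by their level in RPKM, a read count scaled by gene length and by library size. The lowest of the 4 wildtype and Zeus knockdown values had to reach 5 RPKM, and the highest of the 2 Caf40 knockdown values had to be at most 0.25 of it. Of 15178 listed D. melanogaster genes, 6631 reached that floor and 7 met the whole rule. Symbols beginning with mt:, lncRNA, Or, Gr, PH4alpha or Cyp were to be left out, which removed 0 genes.

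The libraries held messenger RNA of testes dissected from adult flies 1 to 7 days old, with 2 libraries in each of 3 D. melanogaster groups. The knockdown genotypes were nosGal4>>UAS-Zeus-RNAi and nosGal4>>UAS-Caf40-RNAi, and the remaining group was labelled wildtype. All 6 libraries carried the strain label Oregon-R. The driver nosGal4 acts in germ cells, so the hub, the cyst cells and the muscle sheath of these testes were not its target. No driver-only control was analysed here, and the D. simulans and D. yakuba libraries were not used. The labels leave unsaid whether the libraries of a group are from different flies, and a p-value here measures the spread between these libraries alone, which may be technical.

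The current name of Caf40 is Rcd-1, and its protein belongs to the CCR4-NOT complex. This complex removes the poly(A) tails of messenger RNAs, a step that usually precedes their decay, and it also acts in translational repression and in transcription. Zeus, now Rcd-1r, arose as a retrocopy of it and is active in testis. In the fly testis, germline stem cells give rise to spermatogonia, then to spermatocytes that transcribe most of the genes needed for sperm, and then to spermatids.

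The 6 libraries held from 12662615 to 24429722 reads on genes, so that 3 reads over 1 kb were worth 0.120 to 0.232 RPKM. The median listed gene had 7.66 and 6.95 RPKM in the Caf40 knockdown and 3.71 to 4.66 RPKM elsewhere. The targeted gene Rcd-1 measured 98.2 and 95.1 RPKM in wildtype, 79.3 and 77.9 RPKM in the Zeus knockdown and 25.7 and 23.3 RPKM in the Caf40 knockdown. Rcd-1r measured 22.2 and 26.4 RPKM, 4.05 and 4.04 RPKM, and 134.5 and 113.8 RPKM in the same order. Each target was therefore lowest in the libraries labelled with its own knockdown.

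Of the 6631 genes at or above the floor, the members made up 0.106% on the deposited RPKM scale. The number of genes that met the rule depended on the scaling and on single libraries. It was 21 with RPKM scaled by TMM factors and 119 when every library was given the same median. It was 19 without Caf40 knockdown replicate 2, 12 without Caf40 knockdown replicate 1 and 10 without wildtype replicate 1. With the floor applied to wildtype alone, 50 genes had both Caf40 knockdown values at or below 0.25 of the lowest wildtype value. Of these, 18 were equally low in both Zeus knockdown libraries, 7 were the members, and 25 lay between. The same rule with the knockdowns exchanged found 8 genes lost only in the Zeus knockdown. Turned upside down, it found 341 genes raised only in the Caf40 knockdown. These counts are on the deposited scale, describe the libraries and were not tested. In bulk tissue, fewer cells of a type and less RNA per cell cannot be told apart, which holds for every level given here.

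Because the Caf40 knockdown values chose the members, their sizes are a description and carry no test. Arr1 encodes an arrestin, a protein that binds light-activated rhodopsin and ends its signalling, and it is best known from photoreceptors. It measured 34.9 and 32.0 RPKM in wildtype, 30.2 and 30.4 RPKM in the Zeus knockdown, and 2.52 and 3.34 RPKM in the Caf40 knockdown. The Caf40 knockdown mean was 2.93 ± 0.580 RPKM against 33.4 ± 2.04 RPKM in wildtype (SD, n = 2), which is 11.4-fold lower. Both Zeus knockdown libraries were below both wildtype libraries, though the 4 lay close together. The rule sets the Caf40 knockdown libraries below all 4. Here and below, such separation of libraries is on the deposited scale, and its share over all genes was not counted.

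CG14369 had the lowest remnant. It measured 36.0 and 28.5 RPKM in wildtype, 13.2 and 14.1 RPKM in the Zeus knockdown, and 0.671 and 0.160 RPKM in the Caf40 knockdown. Those last values rest on 3 reads and 1 read, against 531 reads in the wildtype libraries together. The pooled ratio of wildtype to Caf40 knockdown was 86.8, with an exact 95% binomial counting interval from 33.7 to 319.7. Such intervals cover counting error only, since PCR reads are not independent molecules. They leave out the spread between libraries and the choice of the gene by this same ratio, so they carry no test. The spread between the 2 libraries of a group was above counting error. Its chi-square per degree of freedom was 13.8 over 11540 genes in the Caf40 knockdown and 4.96 over 11966 genes in wildtype. In the Zeus knockdown it was 2.03 over 11537 genes. Both Zeus knockdown libraries were below both wildtype libraries, and the Caf40 knockdown libraries were lowest by the rule.

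CG6154, which encodes a predicted membrane dipeptidase, measured 8.57 and 7.62 RPKM in wildtype, 9.84 and 10.7 RPKM in the Zeus knockdown, and 0.603 and 0.829 RPKM in the Caf40 knockdown. Its Caf40 knockdown mean was 8.84% of the wildtype mean, close to the 8.77% of Arr1. CG13203 measured 5.74 and 6.71 RPKM in wildtype, 7.02 and 7.24 RPKM in the Zeus knockdown, and 0.562 and 0.830 RPKM in the Caf40 knockdown. In both genes both Zeus knockdown libraries were above both wildtype libraries, while the rule places the Caf40 knockdown libraries lowest in every member.

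CG14915 measured 14.1 and 15.7 RPKM in wildtype, 11.3 and 9.22 RPKM in the Zeus knockdown, and 1.42 and 1.80 RPKM in the Caf40 knockdown. Both Zeus knockdown libraries were below both wildtype libraries, as for Arr1 and CG14369. The Caf40 knockdown values rest on 9 and 16 reads. A wildtype to Caf40 knockdown ratio of 9.05 from the pooled reads has a counting interval from 6.03 to 14.2.

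The members without a current name kept the largest shares of their wildtype mean. FBgn0033288 measured 13.2 and 12.3 RPKM in wildtype, 18.5 and 18.0 RPKM in the Zeus knockdown, and 2.69 and 2.55 RPKM in the Caf40 knockdown. FBgn0086376 measured 6.99 and 5.68 RPKM in wildtype, 6.76 and 5.96 RPKM in the Zeus knockdown, and 1.07 and 0.990 RPKM in the Caf40 knockdown. For FBgn0086376 the wildtype and Zeus knockdown values overlapped, while for FBgn0033288 they did not. The Caf40 knockdown means were 20.6% and 16.2% of wildtype for these identifiers. Neither is in the annotation used here, so no role or chromosome arm is given.

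**Figure D1:**
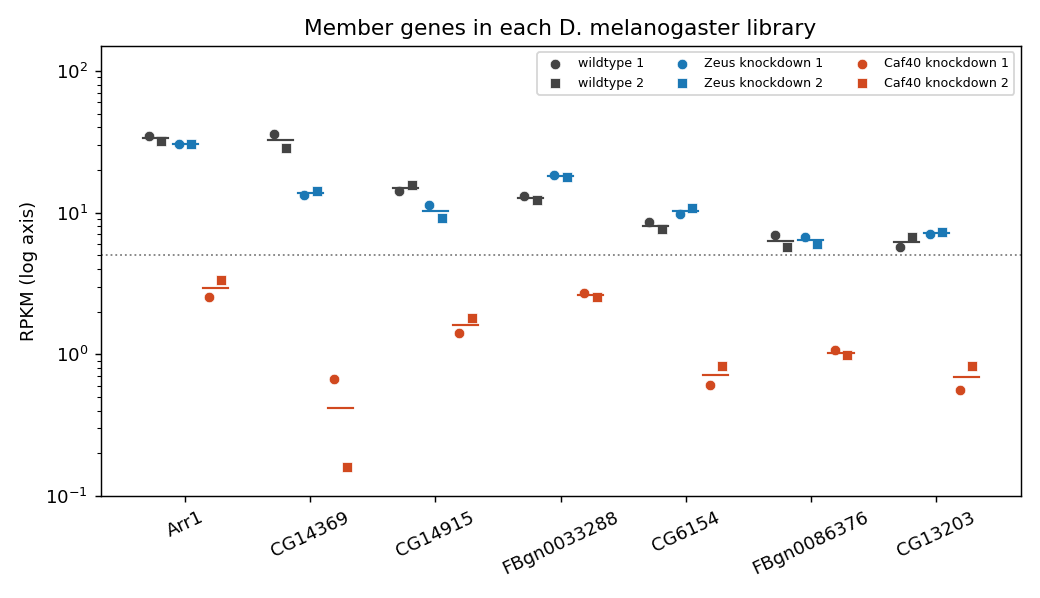
RPKM (log axis) of each member in each of the 6 libraries; circles are replicate 1, squares replicate 2, short bars group means, and the dotted line is the floor of 5 RPKM. All Caf40 knockdown values lie between 0.160 and 3.34 RPKM and all others above the floor.

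In wildtype the means of the members ran from 6.22 to 33.4 RPKM, with the low end bounded by the floor of 5 RPKM. Arr1 (33.4 ± 2.04 RPKM) and CG14369 (32.3 ± 5.25 RPKM, SD, n = 2) led and did not differ beyond their spread. CG14915 (14.9 ± 1.17 RPKM) and FBgn0033288 (12.7 ± 0.615 RPKM) followed, then CG6154 (8.10 ± 0.671 RPKM). FBgn0086376 (6.33 ± 0.931 RPKM) and CG13203 (6.22 ± 0.683 RPKM) were lowest and did not differ beyond their spread. In the Zeus knockdown the order changed. Arr1 (30.3 ± 0.113 RPKM) stood alone at the top, FBgn0033288 (18.2 ± 0.362 RPKM) came next, and CG14369 (13.7 ± 0.629 RPKM) followed. CG6154 (10.3 ± 0.596 RPKM) and CG14915 (10.2 ± 1.44 RPKM) did not differ beyond their spread. In the Caf40 knockdown Arr1 (2.93 ± 0.580 RPKM) and FBgn0033288 (2.62 ± 0.101 RPKM) kept the most transcript and again did not differ beyond their spread. CG14369 (0.416 ± 0.362 RPKM), CG13203 (0.696 ± 0.190 RPKM) and CG6154 (0.716 ± 0.160 RPKM) kept the least. The median wildtype level of the members was 12.7 RPKM, against 28.8 RPKM over the other 6624 genes at or above the floor.

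The threshold cut through a continuous series of ratios. Just inside it, the highest Caf40 knockdown value was 0.219 of the lowest other value for FBgn0033288 and 0.196 for CG14915. Just outside it were CG6974 (0.256), grim (0.261), CG14659 (0.267) and CG18649 (0.269). The gene grim, an activator of cell death that opposes the caspase inhibitor Diap1, measured 7.73 and 8.88 RPKM in wildtype, 10.8 and 10.7 RPKM in the Zeus knockdown, and 1.70 and 2.02 RPKM in the Caf40 knockdown. CG14659 measured 29.7 and 29.0 RPKM, 31.1 and 27.6 RPKM, and 5.68 and 7.38 RPKM in the same order. Both had the same pattern as the members at a smaller size.

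Between 0.25 and a ratio of 1 in 3 there were 21 genes, 19 of them with a symbol. They included t-Grip128 (ratio 0.279), a testis-specific component of the gamma-tubulin ring, Ssl (0.287), a strictosidine synthase-like gene, and Dhit (0.310), a regulator of G-protein signalling. They also included RpS28a (0.328), a paralog of a ribosomal protein gene, the homeobox gene otp (0.329), and the target Rcd-1 itself (0.330). Apart from Rcd-1, these were named after their values were seen. By group means, Rcd-1 kept 25.3% of its wildtype level. The rule holds every member to at most 25%, so the members' lower shares are no result.

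**Figure D2:**
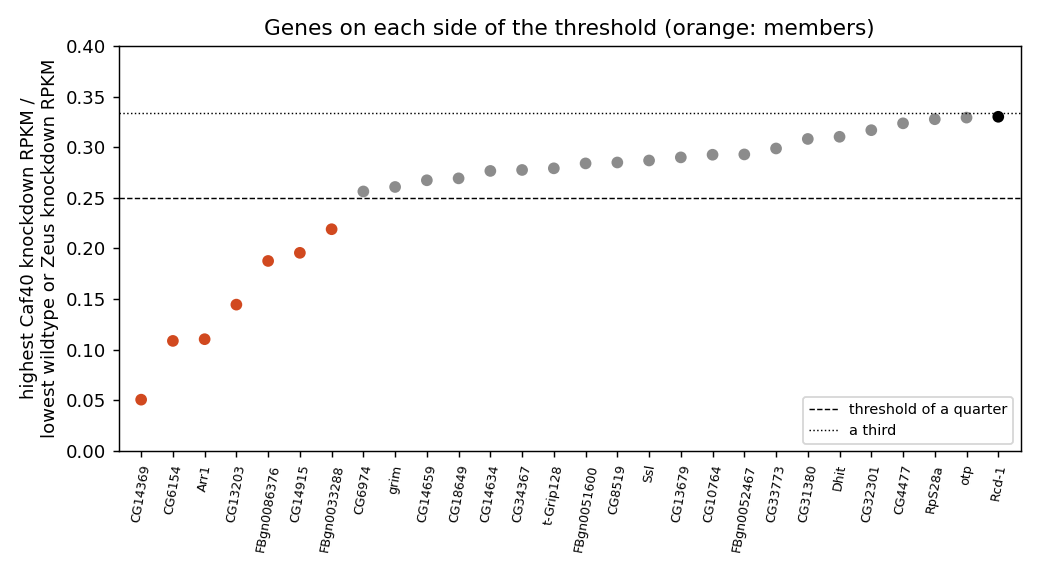
For each gene, the highest Caf40 knockdown RPKM divided by the lowest wildtype or Zeus knockdown RPKM; orange points are the 7 members, grey points genes outside the rule and the black point Rcd-1. Members run from 0.0507 to 0.219, and the next gene, CG6974, stands at 0.256.

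The Zeus knockdown against wildtype was the contrast the rule did not use as a difference, although its 4 libraries had to reach the floor. In edgeR's quasi-likelihood test, with p adjusted by Benjamini-Hochberg over the 10223 genes tested, 2 of the 7 members rose and 1 fell. Of all genes tested, 36.8% were called in this contrast, 16.8% as rises and 20.0% as falls. Of genes at or above the floor, 35.4% were called, 18.9% as rises and 16.5% as falls. The count of 3 members called was thus near the background.

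CG14369 fell in the Zeus knockdown, with a log2 fold change of -1.08 (SE 0.19, edgeR adjusted p = 0.000746), and both Zeus knockdown libraries were below both wildtype libraries. FBgn0033288 rose by 0.66 on the log2 scale (SE 0.08, edgeR adjusted p = 4.25e-05), with both knockdown libraries above both wildtype libraries. CG6154 rose by 0.49 (SE 0.13, edgeR adjusted p = 0.00981).

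The call for CG6154 depended on single libraries. It was lost without wildtype replicate 2 (log2 fold change 0.41, edgeR adjusted p = 0.101) and without Zeus knockdown replicate 2 (0.43, edgeR adjusted p = 0.128), so that 1 member rose. It was also lost with library totals (0.33, adjusted p = 0.0689) and in limma on log2(RPKM + 1) (0.31, adjusted p = 0.0591), and over all its alternatives its adjusted p ran from 0.000851 to 0.128. Without either Caf40 knockdown replicate, 3 members rose, CG13203 joining the others (edgeR adjusted p = 0.0210 and 0.0202).

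The other 4 members did not pass the threshold with TMM scaling and all 6 libraries. Arr1 had a log2 fold change of 0.0081 (SE 0.099, edgeR adjusted p = 0.956), and its sign turned with the scaling, to -0.15 with library totals. CG13203 measured 0.35 (SE 0.14, edgeR adjusted p = 0.0633) and CG14915 -0.41 (SE 0.19, edgeR adjusted p = 0.103) on the same scale. FBgn0086376 measured 0.15 (SE 0.11, edgeR adjusted p = 0.316). With libraries scaled to the same median, and with only the 2 groups compared, CG13203 passed as a rise. With library totals and in limma on log2(RPKM + 1), CG14915 passed as a fall. The members therefore did not share 1 direction in the Zeus knockdown.

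**Figure D3:**
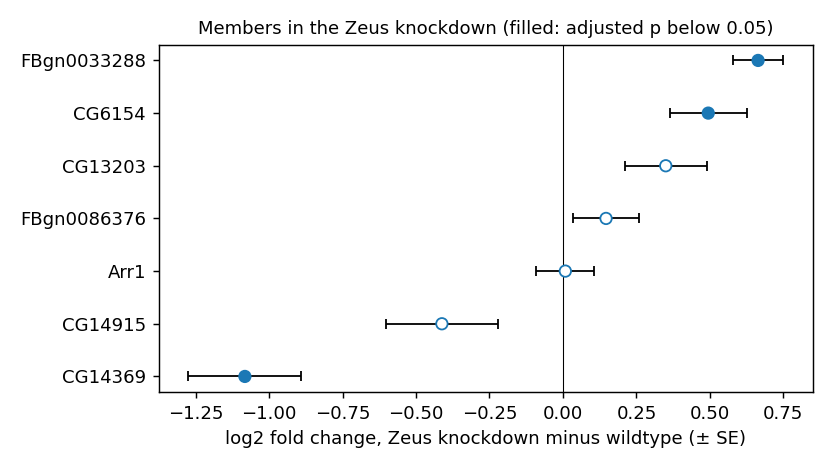
Fitted log2 fold change of each member, Zeus knockdown minus wildtype, with bars of 1 SE; filled points have an adjusted p below 0.05. FBgn0033288 and CG6154 lie to the right, CG14369 lies at -1.08, and Arr1 sits at 0.0081.

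**Figure D4:**
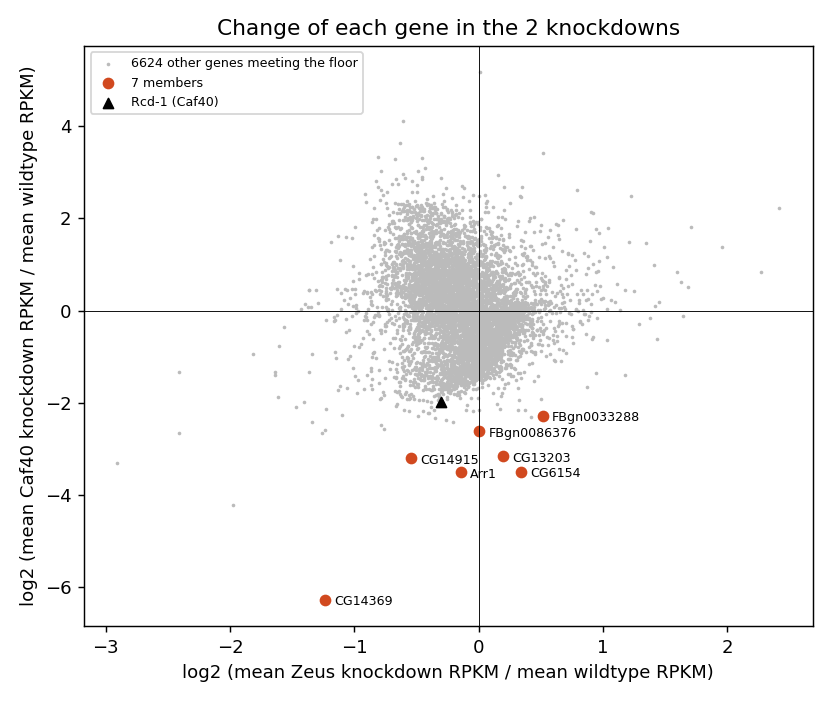
Log2 ratio of group mean RPKM to wildtype for the 6631 genes at or above the floor, with the Zeus knockdown on the horizontal and the Caf40 knockdown on the vertical axis; both axes share the wildtype libraries, so the shape of the cloud is no result. CG14369 lies lowest and to the left, and Rcd-1 lies above the members. Genes outside the rule lie among the members, such as CG10764, whose Caf40 knockdown mean was 5.36% of its wildtype mean.

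Other properties of the members were compared with those of the other genes at the floor, without a test. Their listed exon lengths ran from 339 bases for CG14369 to 5698 bases for FBgn0086376, and the median of 1636 bases was close to the 1628 bases of the other genes at the floor. Among the 5 named members, Arr1 and CG14915 are on arm 2L, CG13203 on 2R, and CG6154 and CG14369 on 3R of the current annotation. None of these 5 was on the X chromosome, which holds 12.8% of the genes at the floor. The median share of wildtype reads that crossed exon junctions was 5.48% for the members and 0.210% for the other genes at the floor. Such reads made up 16.2% of the wildtype reads of CG6154 (104 of 642), 6.79% of those of Arr1 and of FBgn0086376, and 5.48% of those of FBgn0033288. The other 3 members had 0 junction reads in wildtype, and CG14369 and CG14915 are single-exon genes in the current annotation. In the Caf40 knockdown, junction reads were 3 of 38 for CG6154, 5 of 137 for Arr1 and 28 of 337 for FBgn0033288.

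The gene models behind these values differ from current ones for some members. The listed length of CG14369 was 33.0% of its exon length in the current annotation, that of CG6154 42.0% and that of Arr1 58.4%, so their RPKM levels and ratios describe only the listed part of each gene. CG14915 overlaps asRNA:CR46264, which runs on the opposite strand and is not among the listed genes. The sources used here do not say whether counting used strand, so reads from these cannot be told apart.

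Among the 5 named members, no gene was next to another in the current order of protein-coding genes. FBgn0033288 and FBgn0086376 have no place in that order, so their neighbours are not known here. The nearest listed protein-coding gene on each side of the 5 named members gave 10 neighbours, of which 6 reached the mean of 1 RPKM needed for the test. In the Caf40 knockdown against wildtype, 5 of these fell and 1 rose by edgeR's adjusted p, where 38.6% of all tested genes fell and 41.9% rose. CG14370, next to CG14369, fell from 57.1 to 24.8 RPKM (log2 fold change -1.41, SE 0.14, edgeR adjusted p = 3.14e-07). CG18666, next to CG14915, fell from 37.9 to 15.7 RPKM, and elfless, next to Arr1, from 59.5 and 57.4 RPKM to 48.2 and 51.8 RPKM. On the other side of Arr1, ninaD, a scavenger receptor gene needed to take up carotenoids for vision, averaged 0.565 RPKM in wildtype and was not tested. Tapdelta, a subunit of the translocon-associated complex next to CG13203, rose from 69.0 to 111.3 RPKM.

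The eye is where Arr1 is best known, and most other eye genes of the list were low in all libraries. As markers that define photoreceptors, the rhodopsin gene ninaE measured at most 0.611 RPKM in any library, and Rh3 at most 0.285 RPKM. The visual channel gene trp averaged 0.465 RPKM in wildtype and 0.370 RPKM in the Caf40 knockdown. Of the 10 pigment and eye genes in the files, 7 had a mean under 1 RPKM, and 2 of the 3 tested rose and 1 fell in the Caf40 knockdown. The fall was in Rh4, another rhodopsin gene, from 5.03 to 2.33 RPKM (log2 fold change -1.32, edgeR adjusted p = 1.58e-05). The summed level of the list was 14.0 and 12.7 RPKM in wildtype, 97.3 and 88.6 RPKM in the Zeus knockdown, and 78.1 and 87.2 RPKM in the Caf40 knockdown. In both knockdowns most of that sum came from the pigment transporter gene white (w), 1 of the 2 rises. It measured 4.91 and 4.55 RPKM in wildtype, 88.1 and 79.1 RPKM in the Zeus knockdown, and 70.7 and 79.6 RPKM in the Caf40 knockdown. Both knockdown genotypes carry nosGal4 and a UAS construct that the wildtype label does not name. The source of this shared rise was not tested.

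Many genes that mark stages of the germ line were called in the Caf40 knockdown in which the members were lost. Calls were frequent among all genes tested as well, of which 41.9% rose and 38.6% fell. Of 16 meiotic arrest regulators, which drive transcription in spermatocytes, 0 rose and 16 fell (median log2 fold change -1.05, against 0.06 over all genes tested). The testis TAF gene can fell from 22.4 to 7.25 RPKM, the bromodomain gene tbrd-2 from 49.5 to 21.0 RPKM and topi from 43.4 to 19.0 RPKM. Among the 10 tested genes of stem cells and spermatogonia, 6 passed as rises and 2 as falls, with a median of 0.91. The gap junction gene zpg rose from 4.22 to 54.5 RPKM, bam, which ends the spermatogonial divisions, from 3.32 to 36.6 RPKM, and the piRNA gene aub from 11.8 to 79.0 RPKM. The 2 falls were bgcn, from 46.1 to 34.1 RPKM, and chinmo, from 27.7 to 18.9 RPKM, while tut and otu were not called.

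Summed over the list, the meiotic arrest genes measured 512.9 and 518.1 RPKM in wildtype, 356.2 and 368.6 RPKM in the Zeus knockdown, and 287.1 and 287.8 RPKM in the Caf40 knockdown. The spermatogonial sum was 132.3 and 136.4 RPKM, 91.9 and 91.4 RPKM, and 334.8 and 273.6 RPKM in the same order. In both lists the libraries of each group did not overlap with those of the other groups, and the Zeus knockdown libraries were below wildtype. How often other genes separate in this way was not counted. By edgeR's adjusted p, 7 arrest genes and 6 spermatogonial genes fell in the Zeus knockdown and 0 rose. Of all genes tested in that contrast, 20.0% fell and 16.8% rose. In the Caf40 knockdown the directions of these lists held under every scaling tried, with 13 to 16 arrest genes falling.

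Lists of genes for sperm parts and of genes transcribed after meiosis fell as well. Spermatocytes transcribe most of the genes needed for sperm, so a fall in the first list does not mark a later stage. Of 30 sperm tail and chromatin genes, 0 rose and 24 fell (median -0.66), among them the mitofusin gene fzo from 119.1 to 36.7 RPKM, the sperm chromatin gene Prtl99C from 219.4 to 98.6 RPKM and the dynein gene Dnah3 to 23.7 RPKM, a log2 fold change of -1.30. Of 19 genes of the comet and cup list, 0 rose and 14 fell (median -0.68), with soti falling from 363.5 to 112.1 RPKM and sunz from 95.2 to 29.5 RPKM. Comet and cup genes are transcribed after meiosis, and cutlet, also in the list, was not called. The entries swif and cola had identical reads in all 6 libraries, so 1 measurement counts as 2 genes. Neither of them was called. With library totals 3 sperm tail genes and 1 gene of the comet and cup list rose. Of 10 genes of meiotic division, 5 rose and 5 fell, which is near the shares of 41.9% and 38.6% over all genes tested. The translational regulator bol fell from 379.8 to 159.8 RPKM and the phosphatase gene twe from 63.2 to 32.9 RPKM, while the citron kinase gene sti rose from 8.74 to 26.4 RPKM. The part of these germline changes in the members' loss was not tested.

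**Figure D5:**
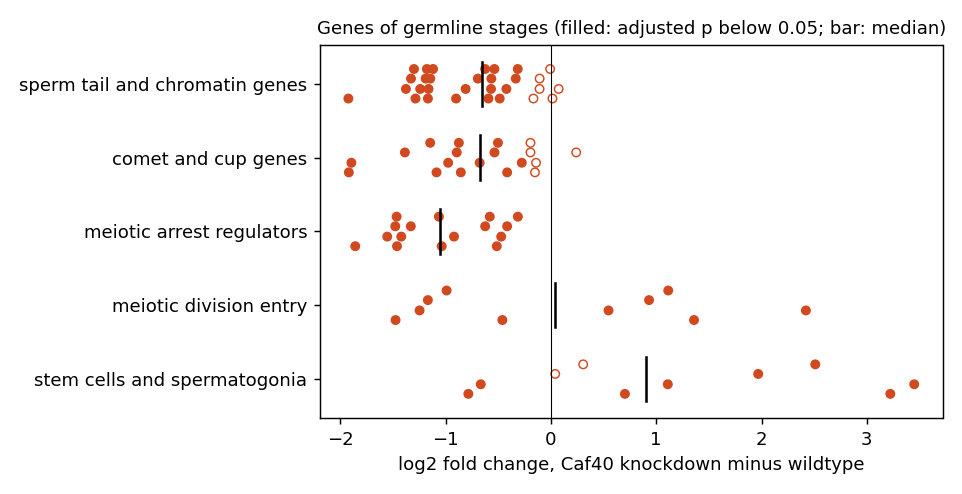
Log2 fold change, Caf40 knockdown minus wildtype, of each tested gene of 5 germline lists; filled points have an adjusted p below 0.05 and bars mark list medians. The spermatogonial median is 0.91, and the medians of the arrest, comet and cup, and sperm tail lists are -1.05, -0.68 and -0.66.

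Of 9 genes of the CCR4-NOT list, 4 rose and 4 fell in the Caf40 knockdown, Rcd-1r and Rcd-1 among them, which is near the 41.9% and 38.6% of all tested genes. The 3 with the smallest p were the target, Rcd-1r and Rga, the NOT2 subunit, which rose from 11.1 to 31.3 RPKM (log2 fold change 1.26, SE 0.09, edgeR adjusted p = 7.40e-09). Of 14 genes of decay and deadenylation partners, 6 rose and 4 fell, with the RNA-binding repressors pum rising from 3.42 to 11.8 RPKM and brat from 3.53 to 12.8 RPKM. With libraries scaled to the same median, 4 of these rose and 9 fell.

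The lists for somatic and other tissues are read against the same shares of 41.9% rising and 38.6% falling. Of 13 hub and cyst cell genes, 7 rose and 4 fell, and of 11 muscle sheath genes 7 rose and 1 fell. With libraries scaled to the same median, 4 hub and cyst genes rose and 6 fell, and 4 muscle sheath genes rose and 2 fell. Without Caf40 knockdown replicate 2, 2 muscle sheath genes fell. For 7 tested genes of accessory gland and ejaculatory duct the rises were 2 and the falls 3; of 4 fat body genes 2 and 2, of 4 gut genes 2 and 0, of 4 neuronal and hemocyte genes 1 and 2, and of 6 immune peptide genes 4 and 0. No member belonged to any of the 15 lists.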

How the data were processed

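Bowtie and the dm3 build are named in the submitters' processing notes. The Bowtie version, the annotation used and the handling of multiply matching reads were not given in the sources used here. The files hold, per the file headers, the authors' raw counts of reads on each gene (on the genome and on exon junctions), exon lengths, library totals and RPKM values. Names, arms, gene order and current exon lengths came from a BDGP6 annotation, another build, so no coordinates are given. Members were found on the deposited RPKM. Counts were tested with edgeR 4.0.16 in R 4.3.3 (TMM scaling, quasi-likelihood, two-sided, Benjamini-Hochberg, threshold 0.05) over genes with a mean of at least 1 RPKM in the 6 libraries, all 3 groups sharing 1 spread; the fit was tested on simulated data. Standard errors are on the log2 scale, and printed RPKM values carry no TMM factor. DESeq2 1.42.0, limma 3.58.1, other scalings, filters and left-out libraries were alternatives. Rcd-1, Rcd-1r, all members, the 4 genes just outside the threshold and, from each list, those with the smallest p were named. The members and lists were chosen with earlier results of these data known.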

Additional observations from a re-analysis of the deposited data

How the results depend on the processing

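The number of members moved with the rule. It was 23 with a floor of 2 RPKM, 3 with a floor of 10 RPKM, 28 with a ratio of 1 in 3, 3 with a ratio of 1 in 8, 21 with RPKM scaled by TMM factors, 119 with libraries scaled to the same median, and 16 with group means. Leaving out 1 library gave 7 to 19 members, with 19 without Caf40 knockdown replicate 2, 12 without Caf40 knockdown replicate 1 and 10 without wildtype replicate 1.

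In the Zeus knockdown against wildtype, 1 member rose and 2 fell with library totals, and the same counts came from limma; leaving out 1 library gave 1 to 3 rises. The sign reversed for Arr1, to -0.15 with library totals, -0.13 in limma and -0.052 without wildtype replicate 2, where leaving out 1 library gave -0.052 to 0.079, and for FBgn0086376, to -0.011 with library totals; the cause was not tested. Calls over all genes ran from 1625 without Zeus knockdown replicate 2 to 5360 without Caf40 knockdown replicate 2, against 3761. Library totals shifted the median log2 fold change of all genes by -0.16 and the same-median scaling by 0.14 in this contrast, and by 0.22 and -0.45 in the Caf40 knockdown. Of 420 list counts, 38 moved by over 1.5-fold.

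The deviations of same-numbered libraries correlated at -0.04, -0.05 and 0.02. With 2 libraries in each group, these values cannot show whether same-numbered libraries shared a batch. With the replicate block 2 members rose and 1 fell, and the calls over all genes were 3615 for Zeus and 8169 for Caf40. CG13203 and FBgn0086376 have no value with a filter of 5 RPKM, and promoter motifs were not run. At this depth, the Caf40 knockdown values of CG14369 rest on 4 reads.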
